A study of Homo sapiens with 24 samples.

Results

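Integrins are the cell surface receptors through which a cell holds on to the extracellular matrix, and 10 genes that encode integrin subunits were followed here across 2 cancer cell lines and 4 times of RAF inhibitor treatment. The genes are ITGA2, ITGA3, ITGA5, ITGA6 and ITGAV, which encode α subunits, and ITGB1, ITGB3, ITGB4, ITGB5 and ITGB8, which encode β subunits. They were taken by symbol, with every probe that carries one of these symbols: 23 of the 47231 probes on the array, of which 19 passed the filter on dim probes. All 10 genes had at least 1 such probe, so they make up 10 of the 13699 genes tested.

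RNA came from SW1736, a thyroid cancer line, and SKMEL28, a melanoma line. Both lines carry the BRAFV600E mutation, which keeps the RAF, MEK and ERK kinase cascade switched on, and both were grown in RPMI medium with serum. Each line was treated with 2 µM vemurafenib, an inhibitor of the mutant BRAF kinase, for 1, 6 or 48 h, or left untreated (0 h). Each of the 8 groups had 3 Illumina bead arrays, 24 in all, and the series was deposited under a title about the relief of feedback inhibition in thyroid carcinoma by RAF and MEK inhibitors. Each line is a single established line and stands for 1 tumour. Nothing in the labels says whether the 3 replicates of a group came from separate cultures, so p-values measure the spread between these arrays, which may be technical. The untreated cells were taken at 0 h alone, so the drug and the time in culture cannot be told apart.

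Each integrin receptor is a pair of 1 α and 1 β subunit, and the pair decides which matrix protein is bound. The αV subunit pairs with β3, β5, β8 and others and binds proteins that carry the RGD peptide, such as vitronectin and fibronectin, while α5β1 is the main fibronectin receptor, α2β1 binds collagen, and α3β1, α6β1 and α6β4 bind laminins. The β3 subunit is known in melanoma as a mark of vertical growth and invasion, and α6β4 anchors epithelial cells to the basement membrane through hemidesmosomes.

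The arrays gave a log2 signal for each probe after background correction and quantile normalisation, and the 3 integrin probes detected on no array averaged 4.51 to 4.59 on that scale. The arrays detected 17369 to 19843 of their probes each (36.8% to 42.0%), and every array correlated with those of its own group at a mean of 0.979 to 0.984 in SW1736 and 0.988 to 0.992 in SKMEL28. The median SD between replicates was 0.279 in SW1736 and 0.180 in SKMEL28, so each line was judged by its own spread. Of the melanocyte markers on the array, 6 of 6 were detected on at least 10 of 12 SKMEL28 arrays, against MITF alone in SW1736. Of the thyroid follicular cell markers, PAX8 and FOXE1 were detected on all 12 SW1736 arrays, while TG, SLC5A5 and NKX2-1 were detected on none of them. DUSP6 and SPRY2, feedback inhibitors that ERK switches on, checked the action of the drug. At 1 h DUSP6 fell by 1.76 in SW1736 and fell by 2.18 in SKMEL28 on the log2 scale. SPRY2 fell by 1.43 in SW1736 and fell by 2.56 in SKMEL28 (limma with Benjamini-Hochberg adjustment over all genes, adjusted p of at most 0.0075 for both genes). At 48 h the lines were not alike in this check. DUSP6 changed by -1.11 in SW1736 and -4.30 in SKMEL28, while SPRY2 changed by -2.30 in SKMEL28 and did not pass in SW1736. The 48 h changes differed between the lines by 3.19 for DUSP6 and 2.68 for SPRY2 (limma adjusted p = 2.4e-08 and 7.4e-09).

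At 48 h against 0 h, 3 of the 10 integrin genes passed the test in SW1736 and 7 passed it in SKMEL28. ITGB3 went opposite ways, higher in SW1736 and lower in SKMEL28. ITGAV was higher in both lines and ITGA6 lower in both. The ITGAV change in SKMEL28 was small (0.35), and 2 alternative settings ended its call. ITGA3, ITGA5, ITGB5 and ITGB8 fell in SKMEL28 and did not pass in SW1736, and ITGA2, ITGB1 and ITGB4 passed in neither line. Over all genes tested, 25.1% passed in SW1736 and 47.8% in SKMEL28 (adjusted p under 0.05), so the 7 of 10 in SKMEL28 stand beside a background of nearly 1 gene in 2. The median of the 10 integrin changes was -0.16 in SW1736 and -0.97 in SKMEL28, beside 0.02 and 0.03 for all genes, and it was the same with ITGA5 in SKMEL28 set at the bound given for it.

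By direction, 2 integrin genes were higher and 1 was lower in SW1736, where 13.3% of all genes were called higher and 11.8% lower. In SKMEL28, 1 was higher and 6 were lower, where 25.2% of all genes were called higher and 22.7% lower. With the arrays scaled to a common median in place of quantile normalisation, the genes called higher were 1179 of 2957 in SW1736 (1828 of 3439 with quantile normalisation) and 2313 of 5508 in SKMEL28 (3449 of 6553). No called integrin change turned its direction under any alternative setting. A signal from bulk RNA cannot tell fewer expressing cells from less RNA per cell.

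**Figure D1:**
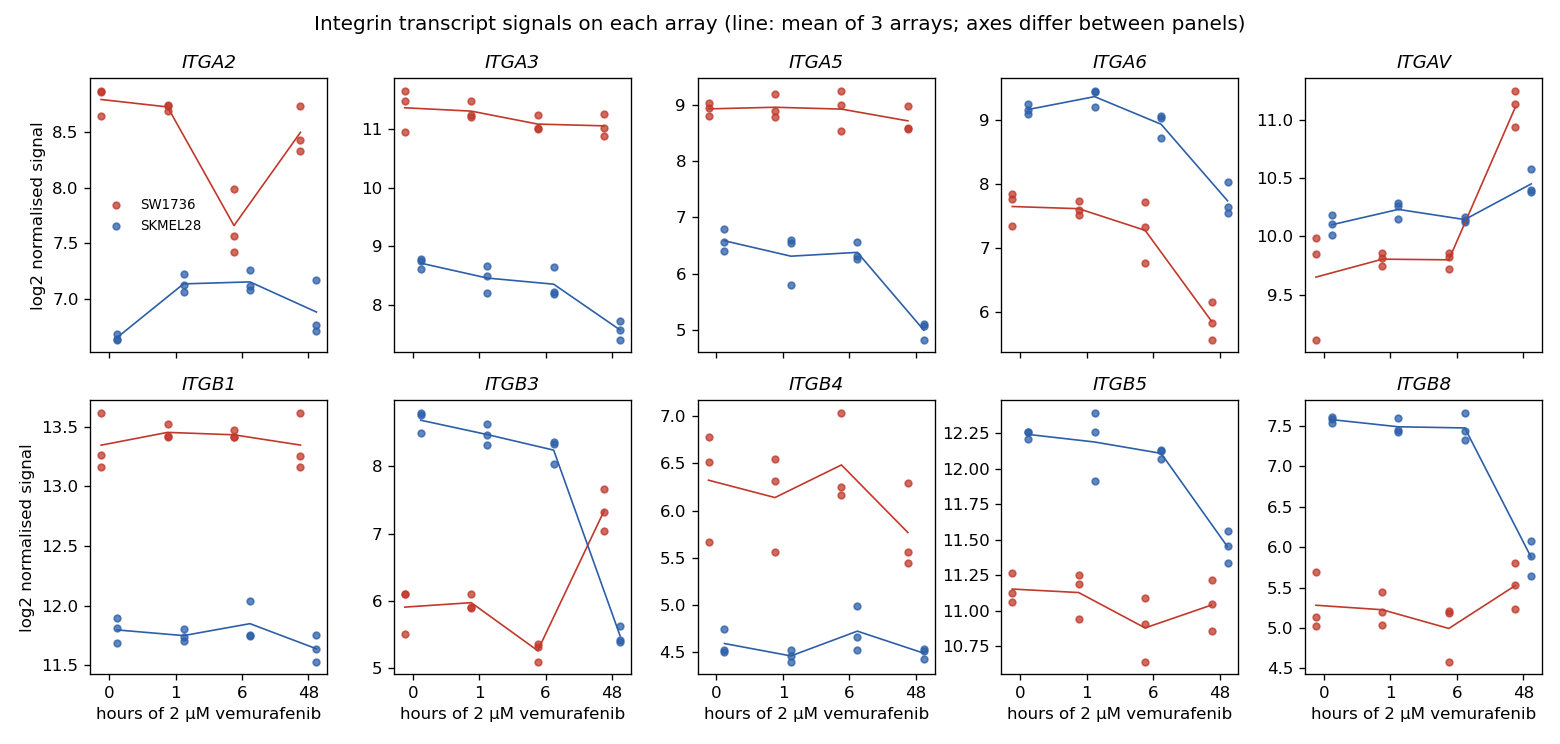
Log2 normalised signal (vertical axis, a scale of its own in each panel) of the main probe of each integrin gene at 0, 1, 6 and 48 h of 2 µM vemurafenib (horizontal axis, evenly spaced), with a point for each array and a line through the means of 3 arrays, SW1736 in red and SKMEL28 in blue. ITGB3 lies at 7.03 to 7.67 in SW1736 and at 5.39 to 5.63 in SKMEL28 after 48 h, against 5.51 to 6.10 and 8.50 to 8.80 before treatment.

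ITGB3 encodes β3, which pairs with αV. In SW1736 its log2 signals were 6.10, 5.51 and 6.10 at 0 h, 5.90, 5.91 and 6.10 at 1 h, 5.09, 5.36 and 5.32 at 6 h, and 7.32, 7.03 and 7.67 at 48 h. In SKMEL28 they were 8.50, 8.76 and 8.80 at 0 h, 8.32, 8.47 and 8.64 at 1 h, 8.36, 8.04 and 8.33 at 6 h, and 5.42, 5.39 and 5.63 at 48 h. The lines thus changed places: every SW1736 array was below every SKMEL28 array before treatment, and every SW1736 array was above every SKMEL28 array at 48 h. The 48 h change was 1.44 ± 0.21 in SW1736, a 2.70-fold higher signal (log2 ± SE, n = 3 arrays per group, limma adjusted p = 0.00015), and -3.21 ± 0.13 in SKMEL28, a 9.26-fold lower one (limma adjusted p = 2.7e-09). The groups did not overlap in either line.

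Ordered by mean, the ITGB3 signal was highest in untreated SKMEL28 (8.69 ± 0.16, SD, n = 3) and in SKMEL28 at 1 h (8.47 ± 0.16) and 6 h (8.24 ± 0.17), whose neighbouring ranges overlapped. SW1736 at 48 h followed at 7.34 ± 0.32, apart from both its neighbours. SW1736 at 1 h (5.97 ± 0.12) and 0 h (5.91 ± 0.34) and SKMEL28 at 48 h (5.48 ± 0.13) overlapped in that order, and SW1736 at 6 h was lowest at 5.26 ± 0.14, with the probe detected on 1 of 3 arrays. Without background correction the size of the change was smaller, 0.74 in SW1736 and -1.89 in SKMEL28, with both calls kept.

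ITGAV encodes the αV subunit itself. In SW1736 the log2 signals were 9.99, 9.12 and 9.85 at 0 h, 9.86, 9.75 and 9.81 at 1 h, 9.86, 9.72 and 9.83 at 6 h, and 11.25, 11.14 and 10.94 at 48 h. In SKMEL28 they were 10.01, 10.11 and 10.18 at 0 h, 10.29, 10.26 and 10.15 at 1 h, 10.17, 10.14 and 10.12 at 6 h, and 10.38, 10.39 and 10.58 at 48 h. In both lines the 48 h arrays stood above all earlier ones, by a wide margin in SW1736 and a narrow one in SKMEL28. ITGAV rose by 1.46 ± 0.21 in SW1736 (2.74-fold, limma adjusted p = 0.00014) and by 0.35 ± 0.09 in SKMEL28 (1.27-fold, limma adjusted p = 0.0067). Median scaling ended the SKMEL28 call (0.16, adjusted p = 0.49), as did a spread estimated from both lines together (adjusted p = 0.098).

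ITGB5 encodes β5, a partner of αV in a vitronectin receptor. Its SKMEL28 log2 signals were 12.26, 12.21 and 12.26 at 0 h, 12.26, 12.39 and 11.91 at 1 h, 12.13, 12.13 and 12.07 at 6 h, and 11.46, 11.56 and 11.33 at 48 h. In SW1736 all 12 arrays lay between 10.64 and 11.27. The 48 h arrays of SKMEL28 lay below every earlier SKMEL28 array, while the SW1736 groups overlapped. The 48 h change was -0.11 ± 0.18 in SW1736 (limma adjusted p = 0.72) and -0.79 ± 0.12 in SKMEL28, where ITGB5 fell (1.73-fold lower, limma adjusted p = 0.00015).

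ITGB8 encodes β8, which with αV binds latent TGF-β. In SKMEL28 the log2 signals were 7.59, 7.61 and 7.53 at 0 h, 7.60, 7.44 and 7.42 at 1 h, 7.44, 7.33 and 7.66 at 6 h, and 5.89, 6.08 and 5.64 at 48 h. In SW1736 the probe was near background throughout, between 4.58 and 5.80, and was detected on 1, 0, 0 and 2 of 3 arrays at 0, 1, 6 and 48 h. The SKMEL28 signal at 48 h was below all earlier ones and close to the highest SW1736 arrays. ITGB8 had a change of 0.24 ± 0.24 in SW1736 (limma adjusted p = 0.52), which did not pass, and fell by 1.71 ± 0.12 on the log2 scale in SKMEL28 (3.26-fold, limma adjusted p = 3.9e-07). Without background correction the SKMEL28 change was -0.91, with the call kept.

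**Figure D2:**
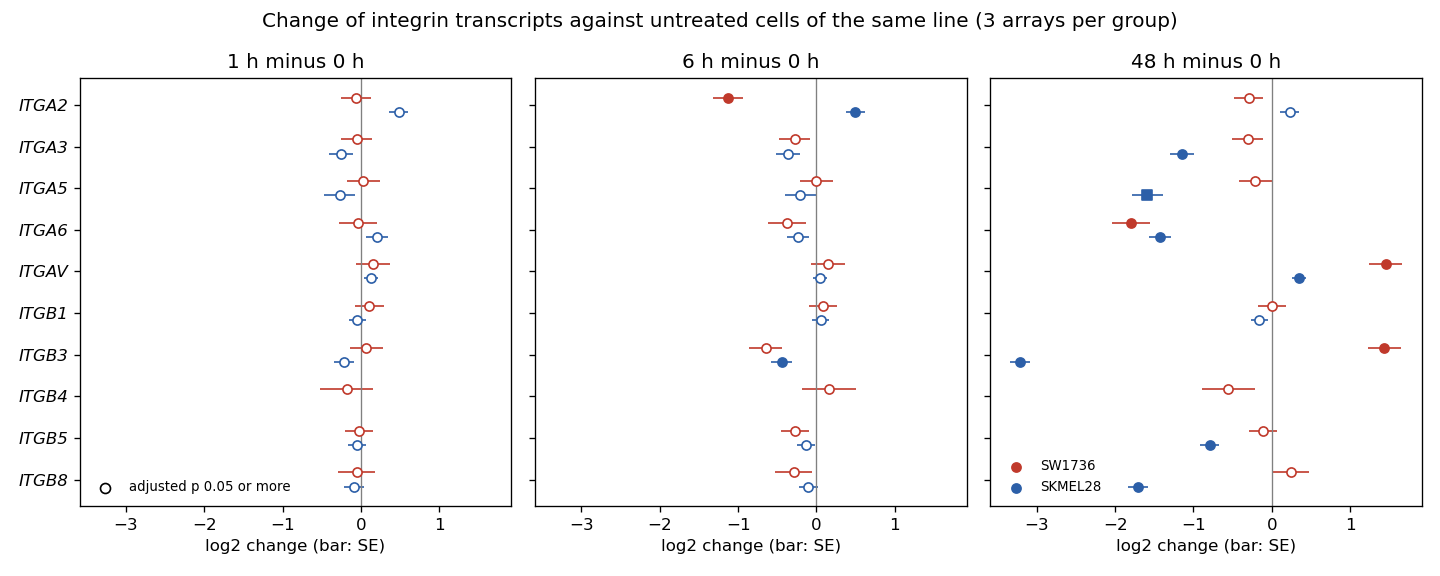
Log2 change of each integrin gene (rows) against untreated cells of the same line at 1, 6 and 48 h (left to right), with SW1736 above SKMEL28 in each row, bars for the SE of 3 against 3 arrays, and filled points for an adjusted p under 0.05. A square (ITGA5 in SKMEL28 at 48 h) has 1 group not well above background, and ITGB4 in SKMEL28 is not drawn, with its main probe not detected. At 1 h no point is filled, at 6 h ITGA2 is filled on opposite sides of 0 (-1.13 in SW1736 and 0.50 in SKMEL28), and at 48 h ITGB3 stands at 1.44 in SW1736 and -3.21 in SKMEL28.

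ITGA5 encodes α5, which binds fibronectin together with β1. Its SW1736 log2 signals were 9.03, 8.95 and 8.80 at 0 h and 8.97, 8.57 and 8.59 at 48 h, and those of 1 and 6 h lay between 8.53 and 9.25. In SKMEL28 they were 6.79, 6.40 and 6.57 at 0 h, 6.59, 6.54 and 5.80 at 1 h, 6.31, 6.56 and 6.27 at 6 h, and 5.06, 5.10 and 4.83 at 48 h. The probe was not well above background on any of the 3 SKMEL28 arrays of 48 h and was detected on all 3 at every other time. The change was -0.21 ± 0.21 in SW1736 (limma adjusted p = 0.52) and, as fitted, -1.59 ± 0.20 in SKMEL28 (limma adjusted p = 3.3e-05). The SKMEL28 signal was at least 2.49-fold lower at 48 h than at 0 h, a bound taken from the dimmest detected probes of the 48 h arrays. Without background correction the SKMEL28 change was -0.66, with the call kept.

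ITGA2 encodes α2, which with β1 binds collagen. In SW1736 the log2 signals were 8.65, 8.86 and 8.87 at 0 h, 8.74, 8.74 and 8.69 at 1 h, 7.43, 7.56 and 7.99 at 6 h, and 8.42, 8.73 and 8.33 at 48 h. In SKMEL28 they were 6.69, 6.64 and 6.64 at 0 h, 7.13, 7.07 and 7.22 at 1 h, 7.12, 7.26 and 7.08 at 6 h, and 6.77, 6.71 and 7.18 at 48 h. The 6 h arrays of SW1736 were the lowest of that line, and the 6 h arrays of SKMEL28 were all above its 0 h arrays. At 6 h ITGA2 fell by 1.13 ± 0.19 on the log2 scale in SW1736 (2.19-fold, limma adjusted p = 0.0029) and rose by 0.50 ± 0.12 in SKMEL28 (1.41-fold, limma adjusted p = 0.017). At 48 h the change against 0 h was -0.29 ± 0.19 in SW1736 and 0.23 ± 0.12 in SKMEL28, and neither passed. Median scaling (0.34, adjusted p = 0.20) and the spread of both lines (adjusted p = 0.052) each ended the SKMEL28 call at 6 h, which was also lost without SKMEL28 0 h replicate 2 (0.49), 0 h replicate 3 (0.49) or 6 h replicate 2 (0.45).

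ITGA6 encodes α6, which forms laminin receptors with β1 and with β4. In SW1736 its log2 signals were 7.84, 7.34 and 7.76 at 0 h, 7.73, 7.51 and 7.60 at 1 h, 7.33, 6.77 and 7.72 at 6 h, and 5.83, 5.57 and 6.16 at 48 h. In SKMEL28 they were 9.09, 9.16 and 9.25 at 0 h, 9.21, 9.46 and 9.43 at 1 h, 9.03, 9.06 and 8.71 at 6 h, and 7.54, 7.64 and 8.03 at 48 h. In each line the 48 h arrays were below all others of that line. ITGA6 fell by 1.79 ± 0.24 on the log2 scale in SW1736 (3.47-fold, limma adjusted p = 6.5e-05) and fell by 1.43 ± 0.14 in SKMEL28 (2.69-fold, limma adjusted p = 5.4e-06). Without background correction the SW1736 change was -0.97, and with the mean of the gene's kept probes it was -1.18, with the call kept in both cases.

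ITGA3 encodes α3, which with β1 binds laminins. In SW1736 the log2 signals were 11.66, 10.96 and 11.49 at 0 h and 11.03, 11.27 and 10.88 at 48 h, with means of 11.31 ± 0.15 at 1 h and 11.09 ± 0.14 at 6 h (SD, n = 3). In SKMEL28 they were 8.75, 8.77 and 8.60 at 0 h, 8.49, 8.67 and 8.21 at 1 h, 8.65, 8.19 and 8.21 at 6 h, and 7.57, 7.72 and 7.40 at 48 h. The SKMEL28 arrays of 48 h were the lowest of that line, and the SW1736 groups overlapped. The change was -0.31 ± 0.20 in SW1736 (limma adjusted p = 0.31) and -1.14 ± 0.15 in SKMEL28, where ITGA3 fell (2.21-fold lower, limma adjusted p = 6.1e-05). With the mean of both ITGA3 probes the SKMEL28 change was -0.53, since the second probe, detected on 7 of 24 arrays, gave 0.08.

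ITGB4 encodes β4, the partner of α6 in hemidesmosomes. In SW1736 its log2 signals were 6.51, 5.67 and 6.78 at 0 h, 6.31, 5.56 and 6.54 at 1 h, 6.17, 6.25 and 7.03 at 6 h, and 5.45, 5.56 and 6.29 at 48 h, with overlap between all times. Its main probe was not well above background on any of the 12 SKMEL28 arrays, and no ITGB4 probe was detected there at 0 or 48 h. No fold change in SKMEL28 and no difference between the 48 h changes of the lines is therefore given. The SW1736 change at 48 h was -0.55 ± 0.34 (limma adjusted p = 0.27), with a 95% interval of -1.28 to 0.17.

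ITGB1 encodes β1, the shared partner of the collagen, fibronectin and laminin binding α subunits. Its log2 signals lay between 13.16 and 13.62 on the 12 SW1736 arrays and between 11.53 and 12.04 on the 12 SKMEL28 arrays. The 48 h change was 0.00 ± 0.18 in SW1736 (95% interval -0.39 to 0.39) and -0.16 ± 0.11 in SKMEL28 (95% interval -0.39 to 0.08), and neither passed the test.

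Promoter sequence from RefSeq (build GRCh38.p14, 250 bases before to 50 after each gene's start) was matched by symbol for 7 of the 10 genes, in 12 windows, and not for ITGA3, ITGB3 and ITGB4. The windows were searched on both strands for TGANTCA (the AP-1 motif), CCGGAAG (an ETS motif) and GGAATG (a TEAD motif), 3 motifs of factors that respond to ERK or to adhesion signals, and matches are in capitals. Shown are windows of ITGA5, which fell in SKMEL28, ITGA6, which fell in both lines, and ITGAV, which was called higher in both. The first is on the minus strand at chr12:54419217-54419516, and the others are on the plus strand at chr2:172427336-172427635 and chr2:186589806-186590105.
ITGA5 promoter: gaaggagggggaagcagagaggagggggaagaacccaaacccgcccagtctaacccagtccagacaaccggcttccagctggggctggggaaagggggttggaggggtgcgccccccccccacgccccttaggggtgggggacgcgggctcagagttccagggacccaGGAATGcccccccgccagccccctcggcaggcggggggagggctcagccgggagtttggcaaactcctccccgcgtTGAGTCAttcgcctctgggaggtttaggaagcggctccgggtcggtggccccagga
ITGA6 promoter: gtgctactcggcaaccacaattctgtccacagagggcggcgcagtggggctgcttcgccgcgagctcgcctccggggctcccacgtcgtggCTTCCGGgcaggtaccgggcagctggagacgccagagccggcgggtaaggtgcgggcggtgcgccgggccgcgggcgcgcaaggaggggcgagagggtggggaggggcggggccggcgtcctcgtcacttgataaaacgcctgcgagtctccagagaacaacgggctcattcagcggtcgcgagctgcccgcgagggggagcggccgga
ITGAV promoter: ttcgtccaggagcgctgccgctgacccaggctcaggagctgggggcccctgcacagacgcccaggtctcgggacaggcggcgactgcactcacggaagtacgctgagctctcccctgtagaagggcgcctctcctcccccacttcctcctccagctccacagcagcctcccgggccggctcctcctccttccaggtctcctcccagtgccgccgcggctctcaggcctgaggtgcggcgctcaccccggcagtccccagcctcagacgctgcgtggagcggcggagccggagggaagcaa
The ITGA5 window held an AP-1 match that begins at -6 and a TEAD match that begins at -82 from the start of the gene. The printed ITGA6 window held an ETS match on the reverse strand at -159, and a second ITGA6 window, at chr2:172427086-172427385, held none of the 3 motifs. The printed ITGAV window and the second one, at chr2:186599955-186600254, held none either. Across the 12 integrin windows the AP-1 motif occurred in 1, the ETS motif in 2 and the TEAD motif in 2. Among all 35116 promoters of this length, 7.71% held the AP-1 motif, 10.3% the ETS motif and 14% the TEAD motif. A match is a run of letters and not a shown binding site.

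At the earlier times few integrin genes passed. At 1 h none did in either line by limma, beside 0.0292% of all genes in SW1736 and 0.248% in SKMEL28. At an unadjusted p under 0.05, 0 of 10 integrin genes passed in SW1736 and 1 of 10 in SKMEL28, beside 4.64% and 5.83% of all genes at that threshold, so both counts are near the background. In SKMEL28 ITGA2 had a change of 0.48 ± 0.12 (limma adjusted p = 0.31) and its 1 h arrays were all above the 0 h arrays. At 6 h, 1 of 10 passed in SW1736 (ITGA2) and 2 of 10 in SKMEL28 (ITGA2 and ITGB3), beside 3.58% and 13.4% of all genes.

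ITGB3 at 6 h fell by 0.45 ± 0.13 on the log2 scale in SKMEL28 (limma adjusted p = 0.042), ahead of its larger fall at 48 h. Its SW1736 change at 6 h was -0.65 ± 0.21 and did not pass (limma adjusted p = 0.12), with the probe detected on 1 of 3 arrays at 6 h. The SKMEL28 call was lost when any of 8 single SKMEL28 arrays was left out (adjusted p 0.052 to 0.14), namely replicates 2 and 3 of 0 h, replicate 2 of 1 h, the 3 arrays of 6 h and replicates 1 and 2 of 48 h, and also with no filter (0.056), probes counted singly (0.070) and the spread of both lines (0.16). With median scaling the median of all genes moved to -0.13 at 6 h in SKMEL28, and the genes called higher there were 259 of 1459, against 813 of 1835 with quantile normalisation. In SW1736 the same split was 105 of 445, against 193 of 490.

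Most of the integrin change came after 6 h. From 6 to 48 h, 4 of 10 genes passed in SW1736 and 7 of 10 in SKMEL28, beside 18.1% and 43.3% of all genes. In SW1736, ITGB3 rose by 2.08 ± 0.21 (4.24-fold, limma adjusted p = 5.1e-06), ITGAV rose by 1.31 ± 0.21 (limma adjusted p = 0.00047), ITGA2 rose by 0.84 ± 0.19 (limma adjusted p = 0.0056) and ITGA6 fell by 1.42 ± 0.24 on the log2 scale (limma adjusted p = 0.00069). In SKMEL28, ITGB3 fell by 2.77 ± 0.13 and ITGB8 by 1.60 ± 0.12 on the log2 scale over the same interval, with ITGA6, ITGA3 and ITGB5 also lower (-1.20, -0.78 and -0.66) and ITGAV higher (0.31 ± 0.09, limma adjusted p = 0.016). ITGA5, not well above background at 48 h, was at least 2.15-fold lower than at 6 h (limma adjusted p = 0.00013). The ITGB3 probe was detected on 1 of 3 SW1736 arrays at 6 h. On the authors' deposited values its SW1736 rise from 6 to 48 h was 0.99, with the call kept. The ITGAV call of that interval ended without SKMEL28 48 h replicate 3 (0.24, adjusted p = 0.069) and under median scaling (adjusted p = 0.12) or the spread of both lines (adjusted p = 0.17). With the mean of the gene's kept probes the ITGB5 call in SKMEL28 ended (-0.22, limma adjusted p = 0.066). Its other probes detected on all arrays gave -0.28 and -0.44 there, both past the threshold.

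The test of the difference between the lines, the SW1736 change minus the SKMEL28 change, passed for 6 of 10 integrin genes at 48 h, all 6 with the higher change in SW1736, beside 21% of all genes in either direction and 11.5% in that one. The largest was ITGB3 at 4.65 ± 0.25 (95% interval 4.13 to 5.16, limma adjusted p = 4.5e-12). ITGB8 followed at 1.95 ± 0.28 (limma adjusted p = 1.2e-05), with the SW1736 signal near background. ITGAV differed by 1.10 ± 0.23 (limma adjusted p = 0.0012). ITGA5 passed as well (limma adjusted p = 0.0012), but its fitted difference of 1.37 ± 0.29 rests on SKMEL28 arrays of 48 h that were not well above background and is no exact size. ITGA3 differed by 0.84 ± 0.25 (limma adjusted p = 0.020) and ITGB5 by 0.68 ± 0.21 (limma adjusted p = 0.022).

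These calls were not equally firm. Without background correction the ITGB3 difference was 2.64 and that of ITGB8 1.00, both still past the threshold, while that of ITGA5 was 0.48 and did not pass (adjusted p = 0.057). Median scaling ended the ITGA3 and ITGB5 calls (adjusted p = 0.15 and 0.16), and the mean of its probes ended that of ITGA3 (0.07, adjusted p = 0.89). Leaving out SKMEL28 48 h replicate 3 or SW1736 48 h replicate 2 ended the calls of both genes (ITGA3 0.75 and 0.73, ITGB5 0.62 and 0.59), and leaving out SW1736 0 h replicate 2 ended that of ITGA3 (0.63).

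For ITGA6, which fell in both lines, the difference was -0.37 ± 0.29 with a 95% interval of -0.97 to 0.23, so any difference within these bounds could not be resolved with 3 arrays per group. For ITGB1 it was 0.16 ± 0.20 (95% interval -0.26 to 0.58) and for ITGA2 -0.52 ± 0.22 (-0.97 to -0.07, adjusted p = 0.095). At 6 h ITGA2 alone differed, at -1.63 ± 0.22 (limma adjusted p = 3.1e-05), beside 4.26% of all genes. At 1 h limma called 0 of 10, beside 0.0219% of all genes, and 1 of 10 had an unadjusted p under 0.05 (ITGA2, -0.55 ± 0.22), beside 4.44% of all genes.

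**Figure D3:**
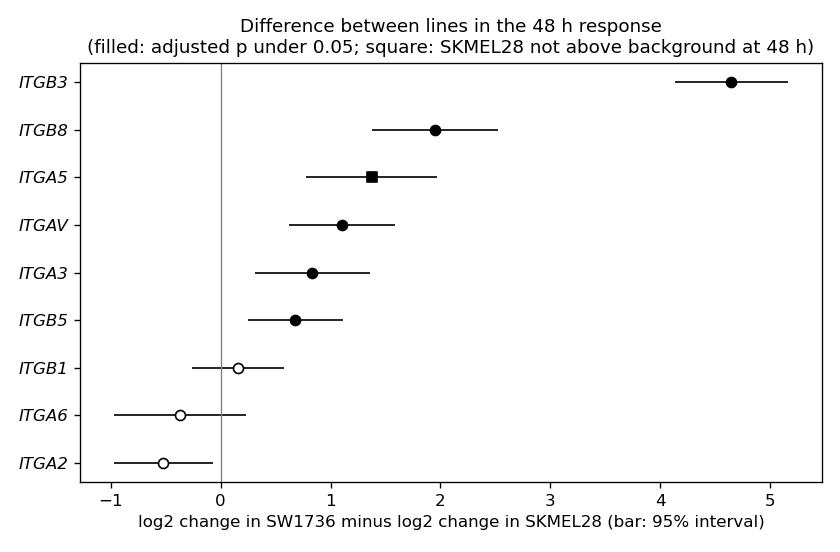
Difference between the lines in the 48 h response of each integrin gene (rows, from the highest at the top), given as the log2 change in SW1736 minus that in SKMEL28, with bars for the 95% interval and filled points for an adjusted p under 0.05. ITGB3 stands apart at 4.65, 5 other genes are filled between 0.68 and 1.95, and ITGB1, ITGA6 and ITGA2 are open. ITGA5 is a square because its SKMEL28 signal was not well above background at 48 h, and ITGB4 is not drawn because it was not detected in SKMEL28 at either time.

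Before treatment the lines already differed in all 10 integrin genes, with 5 higher and 5 lower in SW1736, beside 50.3% of all genes called in either direction (25.5% higher and 24.8% lower). ITGA3 was 6.32-fold higher in SW1736 (2.66 ± 0.18, limma adjusted p = 8.2e-12), ITGA5 5.07-fold, ITGA2 4.39-fold and ITGB1 2.93-fold higher. ITGB4 was at least 2.12-fold higher by its main probe alone. ITGB3 was 6.88-fold lower in SW1736 (-2.78 ± 0.18, limma adjusted p = 2.6e-12), ITGB8 4.91-fold (detected on 1 of 3 SW1736 arrays), ITGA6 2.86-fold and ITGB5 2.13-fold lower. ITGAV was also lower (-0.45 ± 0.16, limma adjusted p = 0.026), a call that median scaling ended (adjusted p = 0.062), as did leaving out SW1736 0 h replicate 2 (-0.18) or an untreated SKMEL28 array, replicate 2 (-0.45) or replicate 3 (-0.41). Without background correction the differences were smaller for ITGB3 (-1.73), ITGB8 (-1.14), ITGA5 (1.62) and ITGA2 (1.47), and with the mean of the gene's probes for ITGA3 (1.86), all with their calls kept.

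Set beside the untreated level of the other line, 6 of the 10 called 48 h changes ran toward that level and 4 ran away from it. The count is a description only. The change and the gap between the lines share the same untreated arrays, and the split over all called genes was not counted. The ITGAV entries rest on an untreated difference whose call was lost under median scaling. ITGB3 in SW1736 came to 7.34 ± 0.32 at 48 h, against 8.69 ± 0.16 in untreated SKMEL28, and ITGB3 in SKMEL28 came to 5.48 ± 0.13, against 5.91 ± 0.34 in untreated SW1736. ITGAV in SW1736 ran toward the SKMEL28 level and past it, and ITGA6, ITGB5 and ITGB8 in SKMEL28 ran toward that of SW1736. ITGB8 in SKMEL28 came to 5.87 ± 0.22, against 5.28 ± 0.36 in untreated SW1736. The 4 that ran away were ITGA6 in SW1736 and ITGA3, ITGA5 and ITGAV in SKMEL28. ITGA3 and ITGA5 were already lower in untreated SKMEL28 (8.71 ± 0.09 and 6.59 ± 0.20) than in untreated SW1736 (11.37 ± 0.36 and 8.93 ± 0.12), and fell further there (all SD, n = 3).

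Genes with several probes were compared probe by probe, with p-values adjusted over all 26673 kept probes. Of the 5 ITGB5 probes, 3 were detected on all arrays, and all 3 fell in SKMEL28 at 48 h (-0.79, -0.48 and -0.97), while in SW1736 they gave -0.11, 0.06 and -0.02, none past the threshold. The other 2 were detected on 3 of 24 arrays. A second ITGA6 probe, detected on 13 arrays, fell in SKMEL28 (-1.19 ± 0.25, limma adjusted p = 0.0025). In SW1736 it was near background with a change of -0.58 ± 0.31 (limma adjusted p = 0.25), less than the main probe. A second ITGB1 probe detected on all arrays gave 0.23 in SW1736 and -0.32 in SKMEL28, and neither passed. The remaining ITGB1 probes were detected on 0 of 24 arrays and the remaining ITGB4 probes on 0, 5 and 4 of 24, of which 1 was a SKMEL28 array, at 1 h. The last 2 ITGB4 probes were detected on no untreated array of either line. Their untreated differences between the lines were 0.05 and 0.44, and neither passed (limma adjusted p = 0.91 and 0.13).

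The ligands, adaptors and partners of integrins gave the surroundings of these changes, as fixed lists of genes. Of 19 measured integrin ligands, SW1736 at 48 h showed 6 higher and 2 lower, and SKMEL28 showed 2 higher and 6 lower. Over all genes 13.3% were called higher and 11.8% lower in SW1736, and 25.2% and 22.7% in SKMEL28. In SKMEL28 the called ligands were no larger a share than the 47.8% of all genes called. The list medians were 0.37 in SW1736 and -0.14 in SKMEL28, beside the 0.02 and 0.03 of all genes. In SW1736 VTN, which encodes vitronectin, a ligand of αVβ3 and αVβ5, was at least 3.90-fold higher (2.84 ± 0.17, limma adjusted p = 2.5e-08), since it was not well above background at 0 h. LAMA5, a laminin chain, rose in both lines, by 2.41 ± 0.20 in SW1736 and by 2.77 ± 0.12 in SKMEL28. TNC, which encodes tenascin-C, changed by -3.80 ± 0.14 in SKMEL28, and its change differed between the lines by 4.79 ± 0.20 (limma adjusted p = 1.49e-13). The matricellular genes CCN1 and THBS1 fell in SW1736 (-2.45 and -1.47), and CCN2 fell in SKMEL28 (-2.17), where the neuronal adhesion gene L1CAM rose by 2.29. Of the 6 ligand genes called lower in SKMEL28, THBS1 was not detected at either time and CCN1 was detected on 1 of 6 arrays.

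Of 19 measured focal adhesion adaptors and kinases, 3 were higher and 0 lower in SW1736, and 4 were higher and 9 lower in SKMEL28. Over all genes 25.1% were called in SW1736 and 47.8% in SKMEL28, and the list medians were 0.06 and -0.21. TNS3, a tensin, rose in both lines, by 1.19 ± 0.22 in SW1736 and by 1.04 ± 0.09 in SKMEL28. NEDD9, a docking protein of focal adhesion kinase, rose in SW1736 (0.92 ± 0.29, limma adjusted p = 0.028) and was at least 2.63-fold lower in SKMEL28 (limma adjusted p = 4.7e-07), where it was not well above background at 48 h. The lines differed in NEDD9 (limma adjusted p = 1.1e-06), with no exact size given for the same reason. PTK2, focal adhesion kinase, rose by 0.54 ± 0.17 in SW1736 and by 0.44 ± 0.09 in SKMEL28 by its main probe. With the mean of its kept probes the SKMEL28 change was -0.00380 and the call was lost (limma adjusted p = 0.98). The actin cross-linkers ACTN1 and ACTN4 fell in SKMEL28 (-1.46 and -1.14).

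Of 11 measured membrane partners of integrins, 2 were higher and 5 lower in SW1736, and 4 were higher and 3 lower in SKMEL28. Beside them stand 25.1% of all genes called in SW1736 and 47.8% in SKMEL28, and the list medians were -0.35 and 0.35. PLAUR, the urokinase receptor, fell by 1.41 ± 0.22 on the log2 scale in SW1736 and fell by 3.49 ± 0.13 in SKMEL28, and the syndecan gene SDC1 fell in both lines (-1.19 and -1.53). SLC3A2, the heavy chain that binds β1, fell by 1.40 in SW1736 and rose by 0.86 in SKMEL28. The tetraspanin gene CD9 rose by 1.21 in SW1736. CD44, a hyaluronan receptor, rose by 1.54 in SKMEL28. CD47, the ligand of the phagocyte receptor SIRPA, rose by 1.17 in SKMEL28 and by 0.88 in SW1736.

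The remaining lists held fewer calls, near or below the 25.1% of all genes called in SW1736 and the 47.8% called in SKMEL28. Of 10 talin, kindlin and inactivator genes, FERMT1 and ITGB1BP1 fell in SW1736 (-1.09 each), while in SKMEL28 ITGB1BP1 rose by 0.31 and DAB2 fell by 0.74 (list medians 0.11 in SW1736 and 0.14 in SKMEL28). Of 4 hemidesmosome genes, LAMB3, a chain of laminin-332, fell by 1.69 in SW1736, and in SKMEL28 DST rose by 0.68 and PLEC fell by 0.86 (list medians -0.26 and -0.19). Of 9 other integrin subunits, ITGA10 and ITGA11, of collagen receptors, rose in SW1736 (1.00 and 0.99), and ITGA4, of the receptor for VCAM-1, fell by 1.24 in SKMEL28 (list medians 0.10 and 0.05).

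**Figure D4:**
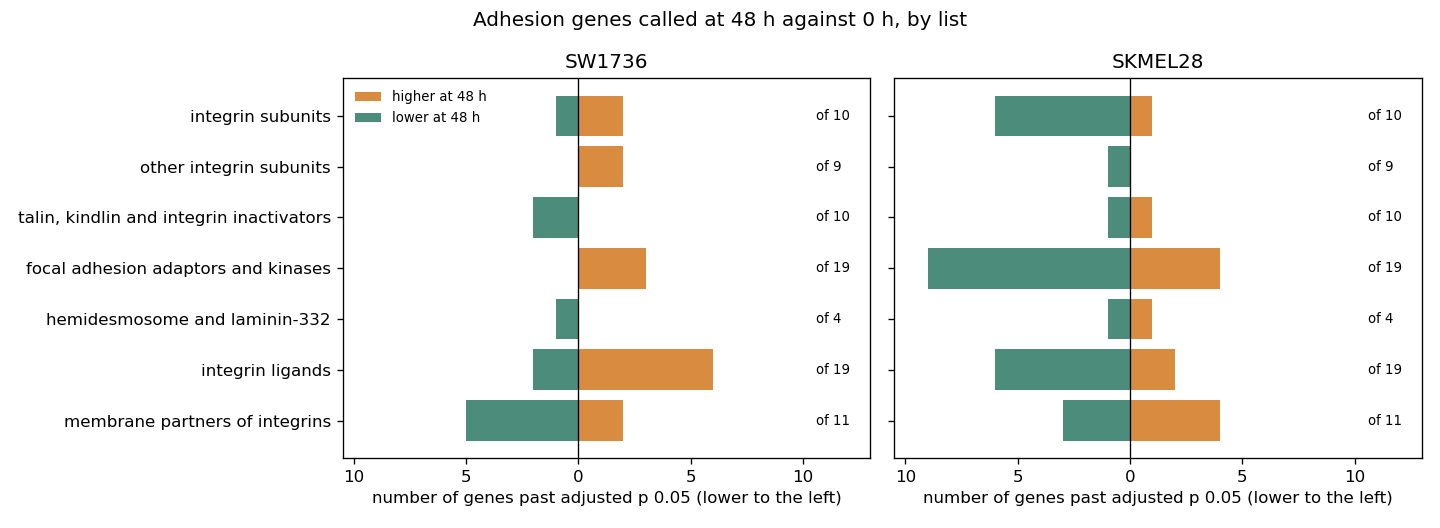
Number of genes past an adjusted p of 0.05 at 48 h against 0 h in each list (rows), in SW1736 (left panel) and SKMEL28 (right panel), with genes called higher drawn to the right of 0, genes called lower to the left, and the number of genes measured at the right edge. Integrin subunits show 2 higher and 1 lower of 10 in SW1736, and 1 higher and 6 lower of 10 in SKMEL28. Over all genes 25.1% were called in SW1736 and 47.8% in SKMEL28.

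Markers of the lines themselves moved at the same time. In SKMEL28, 5 of 6 melanocyte markers rose at 48 h (TYRP1 by 3.66, TYR by 1.62, MLANA by 1.57 and MITF by 0.86), beside 25.2% of all genes called higher. The summed signal of the 6 was 59282 to 61899 at 48 h, against 33635 to 34663 at 0 h. In SW1736 that sum was 192 to 223 at 48 h, against 209 to 221 at 0 h, with MLANA, TYR, TYRP1 and SOX10 detected on 0 of 12 arrays. Of 6 epithelial markers in SW1736, CDH1 rose by 0.70 and KRT7 and KRT18 fell (-1.09 and -0.85), beside 25.1% of all genes called. EPCAM was detected on 0 of 12 SW1736 arrays. The summed signal of the 6 in SW1736 was 11539 to 12645 at 48 h, against 11937 to 14392 at 0 h. CD14, on the leukocyte list, rose by 1.97 in SW1736, with a summed signal of the 2 leukocyte genes tested of 908 to 1088 at 48 h, against 462 to 588 at 0 h, while CD3E was detected on 0 of 12 SW1736 arrays and PTPRC on 1. The part of these markers in the integrin changes was not tested.

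For each integrin gene the genes with the most similar course were found as a description, by Pearson correlation over the 8 group means after each line's own mean was subtracted, among 5493 genes with a group mean at least 0.5 from the line mean. All these points share the same arrays and normalisation, and no p is given. ITGB3 was most like TM4SF1 (r = 0.988), a small membrane protein, and LOX (r = 0.987), which cross-links collagen. ITGAV was most like STING1 (r = 0.997), an adaptor of cytosolic DNA sensing, and ITGA6 most like PTGES3 (r = 0.996), a co-chaperone. ITGB8 was most like IGF1R (r = 0.995), ITGA5 most like ANXA3 (r = 0.994), ITGB5 most like PDLIM7 (r = 0.991), ITGA3 most like CMAS (r = 0.988) and ITGA2 most like HIVEP3 (r = 0.965).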

How the data were processed

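Total RNA of 2 lines was measured on 24 bead arrays. The authors deposited a raw table whose values are linear signal intensities per probe, and, per the file headers, it holds a detection p-value beside each intensity. They also deposited a value table whose values are log2 from their distribution, with a median of 6.90 per column, and each column matched the raw signal of its own array best. Partek is named, with no version, per the submitters' processing notes, and how background was treated is not given in the sources used here. The deposited values gave nearly the same calls as quantile normalisation without background correction. At 48 h these were 6823 and 6823 genes in SKMEL28, and 3875 and 3877 in SW1736. As alternative settings they are therefore nearly the same. All columns were used (0 left out).

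The intensities were background corrected (normexp on detection p-values), given an offset of 16, quantile normalised over all arrays and taken to log2 in limma 3.58.1 (R 4.3.3). The offset makes fold changes of dim probes smaller than they were. The filter kept the 26673 probes that at least 3 arrays detected (detection p under 0.05). GEO's platform annotation gave 30113 of 47231 probes a single symbol, 8 several and 17110 none, and the kept probe with the highest mean signal stood for its gene. Where no array of a group detected a probe, the fold is a bound against, per array, the higher of its own signal and the lowest signal among detected probes.

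Changes within a line were tested on that line's 12 arrays, and differences between lines on all 24, with lmFit, eBayes and Benjamini-Hochberg adjustment over 13699 genes, called at an adjusted p under 0.05. Replicate numbers were left out of the main tests, as same-numbered arrays were at most weakly alike. Their deviations correlated at 0.00 to 0.18 in SW1736 and -0.02 to 0.07 in SKMEL28. The medians were 0.07 in SW1736 (-0.03 for other pairs) and 0.02 in SKMEL28 (-0.01 for other pairs). In SW1736, 4 of 18 same-numbered pairs were over 0.1, each between arrays of replicate 3, so a weak replicate structure remains there. The fits were tested on simulated data. The alternatives tried were the authors' values, median scaling, leaving out each array, a replicate block, array weights, another spread estimate, uncorrected background, a filter at 0.01 or none, and probes taken singly or averaged per gene. The members and lists were chosen with earlier results of these data known. The integrin genes are always named, and from each other list at most 4 genes per comparison, those with the largest called changes. For some of these genes the change in the other line is also given. Neither table names a chip, so no slide block was fitted, and the number of arrays limits the precision.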

Additional observations from a re-analysis of the deposited data

Results flagged for a closer look

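The responses of the 2 lines differed, by the limma test of the SW1736 change minus the SKMEL28 change, for 7 integrin results. Over all genes 4.26% passed that test at 6 h and 21% at 48 h. At 6 h it was ITGA2 at -1.63 (adjusted p = 3.1e-05), lower in SW1736 and higher in SKMEL28. At 48 h it was ITGB3 at 4.65 (adjusted p = 4.5e-12), ITGB8 at 1.95 (adjusted p = 1.2e-05), ITGA5 at 1.37 (adjusted p = 0.0012, a fitted value, since its SKMEL28 signal was not well above background at 48 h), ITGAV at 1.10 (adjusted p = 0.0012), ITGA3 at 0.84 (adjusted p = 0.020) and ITGB5 at 0.68 (adjusted p = 0.022). ITGB3 and ITGA2 had called changes of opposite sign in the lines, ITGAV had called changes of the same sign and unequal size, and the other 4 had a called change in SKMEL28 alone. Median scaling ended the differences of ITGA3 and ITGB5 (limma adjusted p = 0.15 and 0.16). It also ended the SKMEL28 calls of ITGAV at 48 h and ITGA2 at 6 h (limma adjusted p = 0.49 and 0.20). The ITGA5 difference did not pass without background correction (0.48, limma adjusted p = 0.057), and ITGB8 was near background in SW1736. Groups of 3 arrays are too small for the search for single arrays far from the rest, so none was made.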

How the results depend on the processing

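Of the 41 called integrin changes, 1069 of 1106 alternative values kept direction and call, 37 kept direction and lost the call, and 0 turned direction. Of the 79 others, 2006 of 2014 stayed uncalled and 8 passed. The number of integrin genes called at 6 h in SKMEL28 was 2, and was 1 with median scaling, without the filter (20046 genes tested) and with probes counted singly, 0 with the spread of both lines, and 0 to 2 when 1 array was left out. At 6 h in SW1736 it was 1, and 2 with the spread of both lines. The other counts stayed within 1.5 times. The replicate block, as coded, set the untreated lines side by side at the level of replicate 1 and not over all replicates. The untreated ITGAV difference there was -0.28 (limma adjusted p = 0.25), so this value does not show what blocking alone does. It counts among the 37 lost calls. The block also called ITGB4 from 6 to 48 h in SW1736 (-0.71, limma adjusted p = 0.033) and changed no other integrin call. Leaving out 1 array gave 4 to 6 calls for the 48 h difference between lines and 9 to 10 before treatment, and the causes were not tested. With the mean of a gene's kept probes, the untreated difference of ITGB1BP1 turned to 0.86 and the 48 h change of PTK2 in SKMEL28 to -0.00380. The PTK2 call was lost there (limma adjusted p = 0.98). Signals near background limit ITGB8 and ITGB4 in SW1736, and ITGA5 and ITGB4 in SKMEL28. ITGB3 was dim as well, at 5.39 to 5.63 in SKMEL28 at 48 h (detected on 3 of 3 arrays). In SW1736 at 6 h it was at 5.09 to 5.36 (detected on 1 of 3). The sizes of its changes therefore depend on how background was treated.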
